A study of Mus musculus with 18 samples.

Results

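The cytosolic ribosomal protein genes of the mouse descending aorta were taken as the protein-coding genes with symbols beginning Rpl or Rps. The Rps6k kinases and names containing -ps were left out, and at least 10 counts in at least 6 of 18 mice were required. The rule used names and a minimum level and no difference between groups. The annotation gave 86 such names and 83 passed the minimum, out of 15210 genes tested and 54281 genes in the table. The 3 genes below it were paralogs with restricted use in the body, namely Rpl3l of striated muscle with 7 counts over the 18 mice, Rpl39l of the testis with 60 counts and Rpl10l of the testis with 0 counts. Of the 83 genes, 77 encode core proteins of the ribosome, 46 in the large and 31 in the small subunit. The other 6 are the paralogs Rpl7l1, Rpl22l1, Rpl36al and Rps27l, the retrocopy Rps27rt, and Rps19bp1, which shares the prefix but encodes a protein that binds Rps19 and is not part of the ribosome.

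Ribosomes translate every mRNA of the cell, and their proteins are made in nearly equal amounts because nearly every core protein sits in the particle as a single copy. The mRNAs for these proteins are among the most abundant of any cell and are short. Most begin at a C followed by a run of pyrimidines, the 5′ terminal oligopyrimidine (TOP) tract, through which the mTORC1 kinase sets how well they are translated. Growing and dividing cells need more ribosomes than resting ones, and Myc and RNA polymerase I drive their production. In the artery wall, most smooth muscle cells rest in the healthy adult.

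The mice modelled Hutchinson-Gilford Progeria Syndrome (HGPS), a disease of premature ageing caused by progerin, a truncated form of lamin A. RNA was sequenced from the whole descending aorta, with its intimal, medial and adventitial layers, of male C57BL/6 mice in 3 groups of 6. The 2-mo HGPS mice, aged 64 to 75 d, had the genotype LMNAG609G, a knock-in at the Lmna gene itself, so that progerin was made wherever lamin A is made, and the study describes the model as homozygous while the sample labels do not give this. The 2-mo WT mice were 62 d old in 5 cases and 95 d in the other, the 24-mo WT animals ranged from 609 to 762 d, and both WT groups carried the normal gene. The labels name no treatment of any group. Library totals ran from 12413229 to 30844775 counts, and the ribosomal protein genes received 263000 to 777000 counts per mouse. In whole tissue, fewer cells of a type and less RNA per cell cannot be told apart.

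The sequence around the transcript start was read for the pyrimidine run the family is known for. RefSeq gave a start site for 63 of the 83 genes. The 30 bases centred on each annotated start were searched (15 before and 15 after, strand of the gene). A gene counted if any of its starts held a C followed by at least 5 further C or T. This was so for 36 of 63 (57.1%), against 6883 of 27025 genes in the whole table (25.5%) and 20 of 69 mitochondrial ribosomal protein genes (29.0%). The letters CTTTCC, 1 form of such a run on the same strand, stood in 10 of 63 (15.9%) against 451 of 27025 (1.67%). The windows below are from genome build GRCm38.p6, 5′ to 3′, with the longest pyrimidine run that begins with C in capitals. A shorter run can stand beside it unmarked, and the marked run can lie before the annotated start, as in Rps15a. Rpl27a and Rpl7a are shown for their long tracts, and the others because the results below turn on them.
Rpl27a, chr7:109519180-109519209, plus strand: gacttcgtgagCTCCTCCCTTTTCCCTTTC
Rpl7a, chr2:26910792-26910821, plus strand: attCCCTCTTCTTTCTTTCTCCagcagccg
Rps2, chr17:24720048-24720077, plus strand: aggcagtcgagatctcgcgCTTCTTggagc
Rps15a, chr7:118116133-118116162, minus strand: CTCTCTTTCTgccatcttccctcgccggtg
Rps27, chr3:90213634-90213663, minus strand: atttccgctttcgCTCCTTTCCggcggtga
Rps27rt, chr9:114982725-114982754, minus strand: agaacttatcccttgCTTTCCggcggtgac
Rps27l, chr9:66946071-66946100, plus strand: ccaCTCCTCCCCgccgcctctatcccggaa
Rpl22, chr4:152325711-152325740, plus strand: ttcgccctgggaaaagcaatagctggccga
Rpl22l1, chr3:28805493-28805522, plus strand: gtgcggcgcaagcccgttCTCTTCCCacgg
Rplp0, chr5:115559452-115559481, plus strand: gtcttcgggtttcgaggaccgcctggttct
Rpsa, chr9:120127751-120127780, plus strand: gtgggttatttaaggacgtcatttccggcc
The windows of Rps27 and Rps27rt share the letters at the end of the tract and after it. The windows of Rpl22, Rplp0 and Rpsa hold no such run of the length searched for, which says nothing about their actual start. Each window shown is placed on 1 annotated start. Where a gene has several, as Rps27l and Rpl22 do with 2 each, it is the start with the longest run. The true start can lie some bases away.

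The 83 genes together took 2.06 to 2.23% of all counts in the 2-mo WT mice (median 2.15%), 2.31 to 2.81% in the 2-mo HGPS mice (median 2.59%) and 1.63 to 2.26% in the 24-mo WT mice (median 1.93%). Every HGPS mouse lay above every WT mouse of either age. The 24-mo WT mice were spread more widely than the others, with mice 1, 4 and 5 at 1.63, 1.78 and 1.78% and mice 2, 3 and 6 at 2.22, 2.26 and 2.08%, inside or next to the 2-mo WT range. The same 3 mice were low in some marker sums and not in others. In mice 1, 4 and 5 endothelium markers summed to 602, 632 and 746 CPM, macrophage markers to 462, 495 and 551 CPM and cell cycle genes to 58.2, 64.5 and 70.8 CPM. Mice 2, 3 and 6 had 1330, 1600 and 1240 CPM, 968, 908 and 737 CPM, and 79.8, 78.4 and 83.9 CPM. Fibroblast markers were higher in mice 1, 4 and 5, at 7070, 8740 and 7280 CPM against 6600, 6070 and 6040 CPM. So were nerve and glia markers, at 675, 571 and 609 CPM against 531, 546 and 507 CPM. The part of these cells in the spread was not tested. The small subunit genes had 0.776 to 0.794 of the counts of the large subunit genes in 2-mo WT mice, 0.767 to 0.783 in HGPS mice and 0.758 to 0.778 in 24-mo WT mice, so the split between subunits varied far less than the total.

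**Figure D1:**
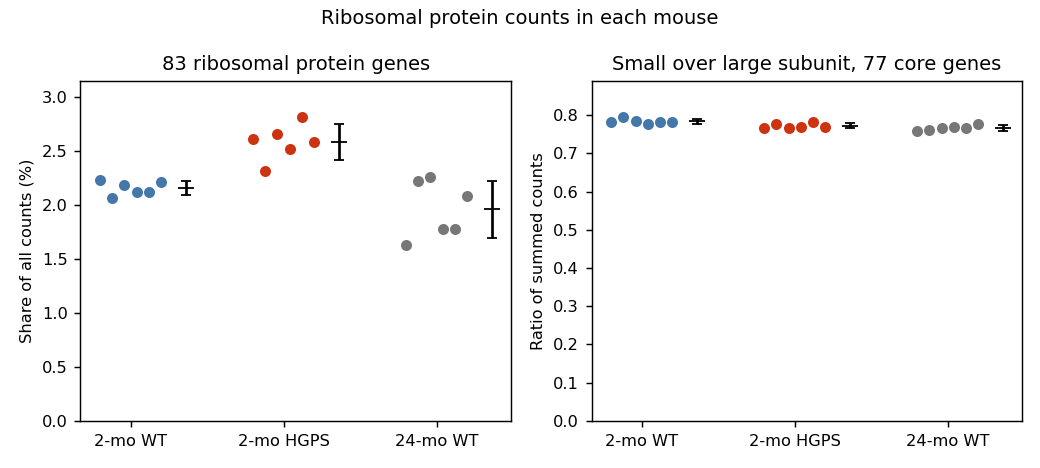
Left, percentage of all counts on the 83 ribosomal protein genes, 1 point per mouse, with mean and SD beside each group; right, summed counts of the 31 core small subunit genes over those of the 46 core large subunit genes. The 6 HGPS mice sit between 2.31 and 2.81%, above all WT mice, and the ratio stays between 0.758 and 0.794 in all 18.

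The genes also varied together from mouse to mouse within a group. After the group means were taken off, the log2 level of a member correlated with the mean of the other members at a median r of 0.86 over the 18 mice, from 0.25 for Rpl10 to 0.97 for Rpl37, and 78 of 83 were above 0.5. The other tested genes had a median r of -0.00461 with the members' mean. Scaling the libraries to each other holds such a median near 0, so it is no contrast for the members. Other short transcripts were not compared. The points share their libraries, so this is a description of common variation among mice and not a test.

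Levels per transcript length differed widely between members. The highest levels in CPM (counts scaled to equal library size) per kilobase, averaged over 18 mice, were those of Rpl41 (751), which encodes the smallest ribosomal protein, Rps4x (750.1), Rps3a1 (722), Rpl23a (675) and Rps14 (665). In the 2-mo WT mice Rps4x stood at 761 ± 21.9 and Rpl41 at 695 ± 64.0 CPM per kilobase (SD, n = 6), so their order changed with the group. The lowest were Rps19bp1 (7.57), which is no ribosomal protein, Rpl12 (13.3), Rpl5 (31.95), Rpl7l1 (52.8) and Rps20 (69.5). For Rpl12 and Rpl5 most counts of the sequence stood on a near-identical copy, described further on, and the only coding transcript annotated for Rps20 has 3706 bases, so its value per kilobase depends on that annotation.

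In the HGPS aorta, ribosomal protein transcripts were more abundant than in 2-mo WT mice of about the same age. Of the 83 genes, 43 were higher in 2-mo HGPS than in 2-mo WT mice, 0 were lower and 40 were not called, when a gene was called at an adjusted p under 0.05 from the quasi-likelihood test of edgeR (TMM normalisation, all genes tested). Across all genes tested, 22% were called higher and 21.2% lower, so the members' share called higher, 51.8%, was above the share of all genes and the share called lower was below it. The log2 fold change was above 0 for 80 of the 83 and its median was 0.22, against 0.0026 for all genes tested. The changes were small: only Rps27l and Rps2 also reached 1.5-fold with an adjusted p under 0.001, where 5.27% of all genes were higher and 4.23% lower at that threshold. In 32 genes all 6 HGPS mice lay above all 6 WT mice, where 11.0% of all genes did, and in 0 genes did they lie below, where 10.9% of all genes did.

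Short transcripts were called higher more often than long ones in the HGPS libraries, and the members have short transcripts. Their median length was 681 bases (271 to 3706, from the shortest principal coding transcript), 65 of 83 were under 1000 bases, and the median of the other tested coding genes was 2839. Among the 957 other coding genes under 1000 bases, 39.9% were called higher and 8.88% lower in HGPS against 2-mo WT, with a median log2 fold change of 0.22, the same as the members' median. Coding genes of 1000 bases or more had 21.7% higher and 23.9% lower and a median of -0.02. By length class the median of the other coding genes fell from 0.31 below 500 bases to -0.12 at 5000 bases or more. Among the members themselves the fold change had r = 0.0503 with log10 length (83 genes, which share their libraries).

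A fit with an offset for transcript length in each mouse, estimated over all genes, called 18 members higher and 1 lower, with a median log2 fold change of 0.043, where the same fit called 41.5% of all genes in either direction. The 18 were all among the 43. They were Rps27l, Rpl12, Rps2, Rpsa, Rplp0, Rps19bp1, Rpl5, Rpl19, Rpl35, Rps19, Rpl11, Rpl13a, Rpl27a, Rpl32, Rps24, Rpl41, Rpl9 and Rps3, and the 1 lower gene was Rpl22l1. At the members' median length the offset itself was 0.0347 to 0.315 on the log2 scale in the HGPS mice, -0.0426 to 0.0557 in the 2-mo WT mice and -0.176 to -0.0407 in the 24-mo WT mice. The size of the offset depends on how length is defined. With the median coding length instead, 24 members were higher and 1 lower at a median of 0.12, where 42% of all genes were called. What made length and level move together in these libraries was not tested.

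**Figure D2:**
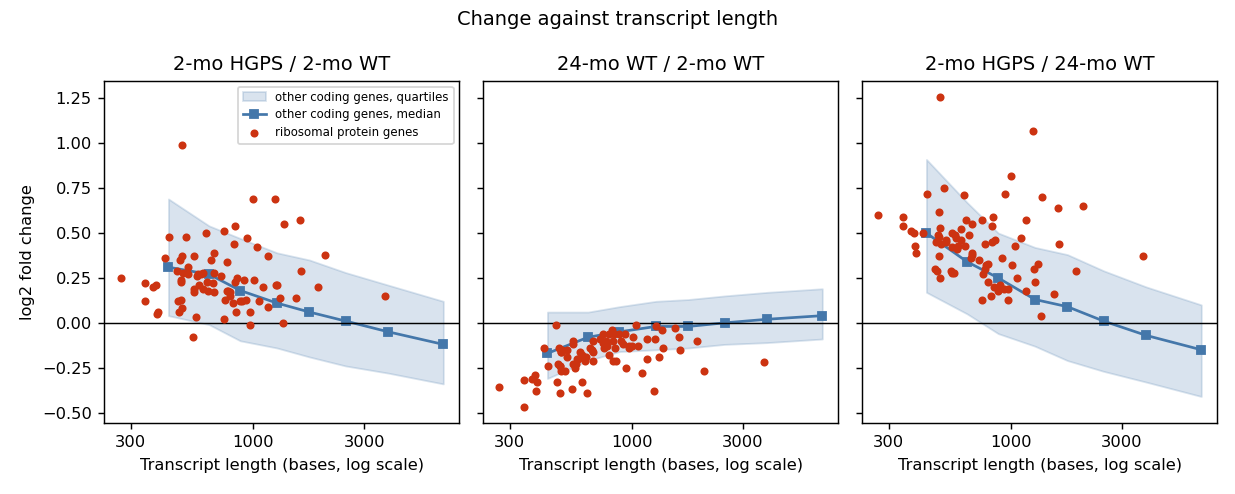
Log2 fold change against transcript length in bases (log axis) for the 83 ribosomal protein genes (red points) and the median and quartiles of the other tested coding genes by length class (blue), in each of the 3 comparisons. In HGPS against 2-mo WT the median of the other genes runs from 0.31 for the shortest to -0.12 for the longest class, and most members lie within the quartiles of genes of their length.

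The largest difference in the family was that of Rps27l, which encodes a paralog of Rps27 and is known as a target of p53 (ENSMUSG00000036781, chr9:66946086-66949516, plus strand, GRCm38). Its level was 43.5 to 47.8 CPM in 2-mo WT mice (median 45.4), 77.3 to 109 CPM in HGPS mice (median 88.6) and 31.4 to 43.1 CPM in 24-mo WT mice (median 38.6). The 3 groups did not overlap at all, with HGPS highest and 24-mo WT lowest. The log2 fold change was 0.99 ± 0.09 (SE), 1.99-fold, with an adjusted p of 1.16e-07 in HGPS against 2-mo WT. With the length offset it was 0.75 (adjusted p 9.1e-08). No near-identical copy of Rps27l was found, so its counts are its own as far as the annotation goes.

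Among the proteins that handle mRNA on the small subunit, Rps2, which sits at the mRNA entry channel, was the one with the greatest change (ENSMUSG00000044533, chr17:24718116-24721929, plus strand). It had 519 to 568 CPM in 2-mo WT mice, 774 to 1012 CPM in HGPS mice and 457 to 538 CPM in 24-mo WT mice, with medians of 539, 852 and 491. HGPS mice were above all others, and the 2 WT ages overlapped. The log2 fold change was 0.69 ± 0.07 (adjusted p 3.09e-07) and 0.55 with the length offset. Of the 5 members of the mRNA entry and decoding side, 3 were higher in HGPS against 2-mo WT (Rps2, Rps3 and Rps15). The median of the 5 was 0.20, and 51.8% of all members and 22% of all genes were called higher. Rps3, which also has a role in DNA repair, was near the lower end of the called genes at 0.20 ± 0.07 (adjusted p 0.0292). Rps9, which like Rps2 and Rps3 lies at the mRNA entry, had 0.02 ± 0.08 (adjusted p 0.864), and Rps23, of the decoding centre itself, had 0.13 ± 0.09 (adjusted p 0.272).

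Rpsa, the ribosomal protein also described as a laminin receptor, stood at 499 to 580 CPM in 2-mo WT mice (median 555), 693 to 931 CPM in HGPS mice (median 817) and 475 to 588 CPM in 24-mo WT mice (median 512). The HGPS mice did not overlap either WT group. Its log2 fold change against 2-mo WT was 0.57 ± 0.08 (adjusted p 1.43e-05) and 0.50 with the length offset. Rps19, of the small subunit head and mutated in a form of Diamond-Blackfan anaemia, rose by 0.50 ± 0.09 on the log2 scale (adjusted p 0.000173). Its binding partner Rps19bp1 had 4.54 to 6.998 CPM in 2-mo WT and 7.24 to 8.95 CPM in HGPS mice, a log2 fold change of 0.54 ± 0.14 (adjusted p 0.00485) with no overlap of the groups.

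The P stalk, through which the large subunit recruits elongation factors, had 3 of 4 members higher in HGPS against 2-mo WT, with a median log2 fold change of 0.46. Over all 83 members 51.8% were called higher, and over all genes 22%. Rplp0, the stalk's base, had 560.1 to 696 CPM in 2-mo WT mice (median 651), 785 to 1079 CPM in HGPS mice (median 968) and 525 to 668 CPM in 24-mo WT mice (median 571). All HGPS mice were above all WT mice, and its log2 fold change was 0.55 ± 0.09 (adjusted p 5.09e-05; 0.46 with the length offset). Rplp2 had 0.36 ± 0.14 (adjusted p 0.041), and 0.10 (adjusted p 0.491) with the length offset. Rplp1 had the same size of difference, 0.37 ± 0.17, but a wide spread and was not called (adjusted p 0.0845). In 2-mo WT mice Rplp1 ran from 191 to 358 CPM and in HGPS mice from 229.5 to 454 CPM, so the groups overlapped over much of their range.

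Rpl12, which binds at the foot of the stalk, had a log2 fold change as high as that of Rps2, 0.69 ± 0.15 (adjusted p 0.0011). Its level was 12.1 to 16.9 CPM in 2-mo WT mice, 14.1 to 27.04 CPM in HGPS mice (median 25.5) and 7.73 to 14.2 CPM in 24-mo WT mice. The groups overlapped because of HGPS mouse 4 at 14.1 CPM, while the next HGPS mouse was at 23.2 CPM. Its 10 copies held 95.2% of the counts on its sequence and the gene itself had 5899 counts over 18 mice. With the copies added, the log2 fold change was 0.76 ± 0.08 (adjusted p 1.45e-06).

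Rpl5 and Rpl11 join the small ribosomal RNA of the large subunit in a particle that, when free, is known to bind the p53 regulator Mdm2. Both were higher in HGPS against 2-mo WT with no overlap. Over all members 51.8% were called higher and 32 of 83 lay above without overlap. Over all genes the shares were 22% and 11.0%. Rpl11 had 133 to 170 CPM in 2-mo WT mice and 188.5 to 235 CPM in HGPS mice, a log2 fold change of 0.44 ± 0.09 (adjusted p 0.000611). Rpl5 had 58.1 to 67.6 CPM in 2-mo WT, 75.9 to 86.7 CPM in HGPS and 39.5 to 61.2 CPM in 24-mo WT mice, with 0.38 ± 0.08 (adjusted p 0.00131) for HGPS against 2-mo WT. Both were still called with the length offset, at 0.28 for Rpl11 and 0.36 for Rpl5. With its copies, which held 88.4% of the family's counts, Rpl5 had 0.21 (adjusted p 0.0367).

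Of the 9 proteins that line or ring the exit tunnel for the growing peptide, 6 were higher in HGPS against 2-mo WT, with a median of 0.29, and all 6 had groups that did not overlap (22% of all genes were called higher and 11.0% lay above without overlap). The highest was Rpl19 with 285 to 330 CPM in 2-mo WT mice and 381 to 493 CPM in HGPS mice, a log2 fold change of 0.51 ± 0.09 (adjusted p 0.00012). Rpl35, at the tunnel rim, had 0.47 ± 0.11 (adjusted p 0.00222). Rpl4, which forms part of the constriction, had 0.14 ± 0.07 (adjusted p 0.104) and Rpl39, a small protein deep in the tunnel, had 0.19 ± 0.10 (adjusted p 0.125).

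Several core genes differed little. Rpl3, beside the site of peptide bond formation, had 578 to 635 CPM in 2-mo WT mice and 551 to 696 CPM in HGPS mice and a log2 fold change of -0.00161 ± 0.07 (adjusted p 0.987). Rps3a1 had -0.01 ± 0.08 (adjusted p 0.899) and Rps6, the substrate of S6 kinase downstream of mTORC1, had 0.12 ± 0.08 (adjusted p 0.235, and -0.04 with the length offset). Rps27a, made as a fusion with ubiquitin, had 189 to 205 CPM in 2-mo WT mice and 219 to 252 CPM in HGPS mice. It was higher by 0.23 ± 0.08 (adjusted p 0.0235) with no overlap, but had 0.03 with the length offset. Among the called genes nearest to 0 were Rps3 at 0.20, Rps13 and Rpl6 at 0.21 each and Rpl24 at 0.22, and of these Rps13 turned to -0.01 with the length offset. Split by subunit, 26 of 49 large (53.1%) and 16 of 33 small subunit genes (48.5%) were called higher in HGPS against 2-mo WT, paralogs included. Their medians were 0.23 and 0.20, and both shares were near the 51.8% of all members, where 22% of all genes were called higher.

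**Figure D3:**
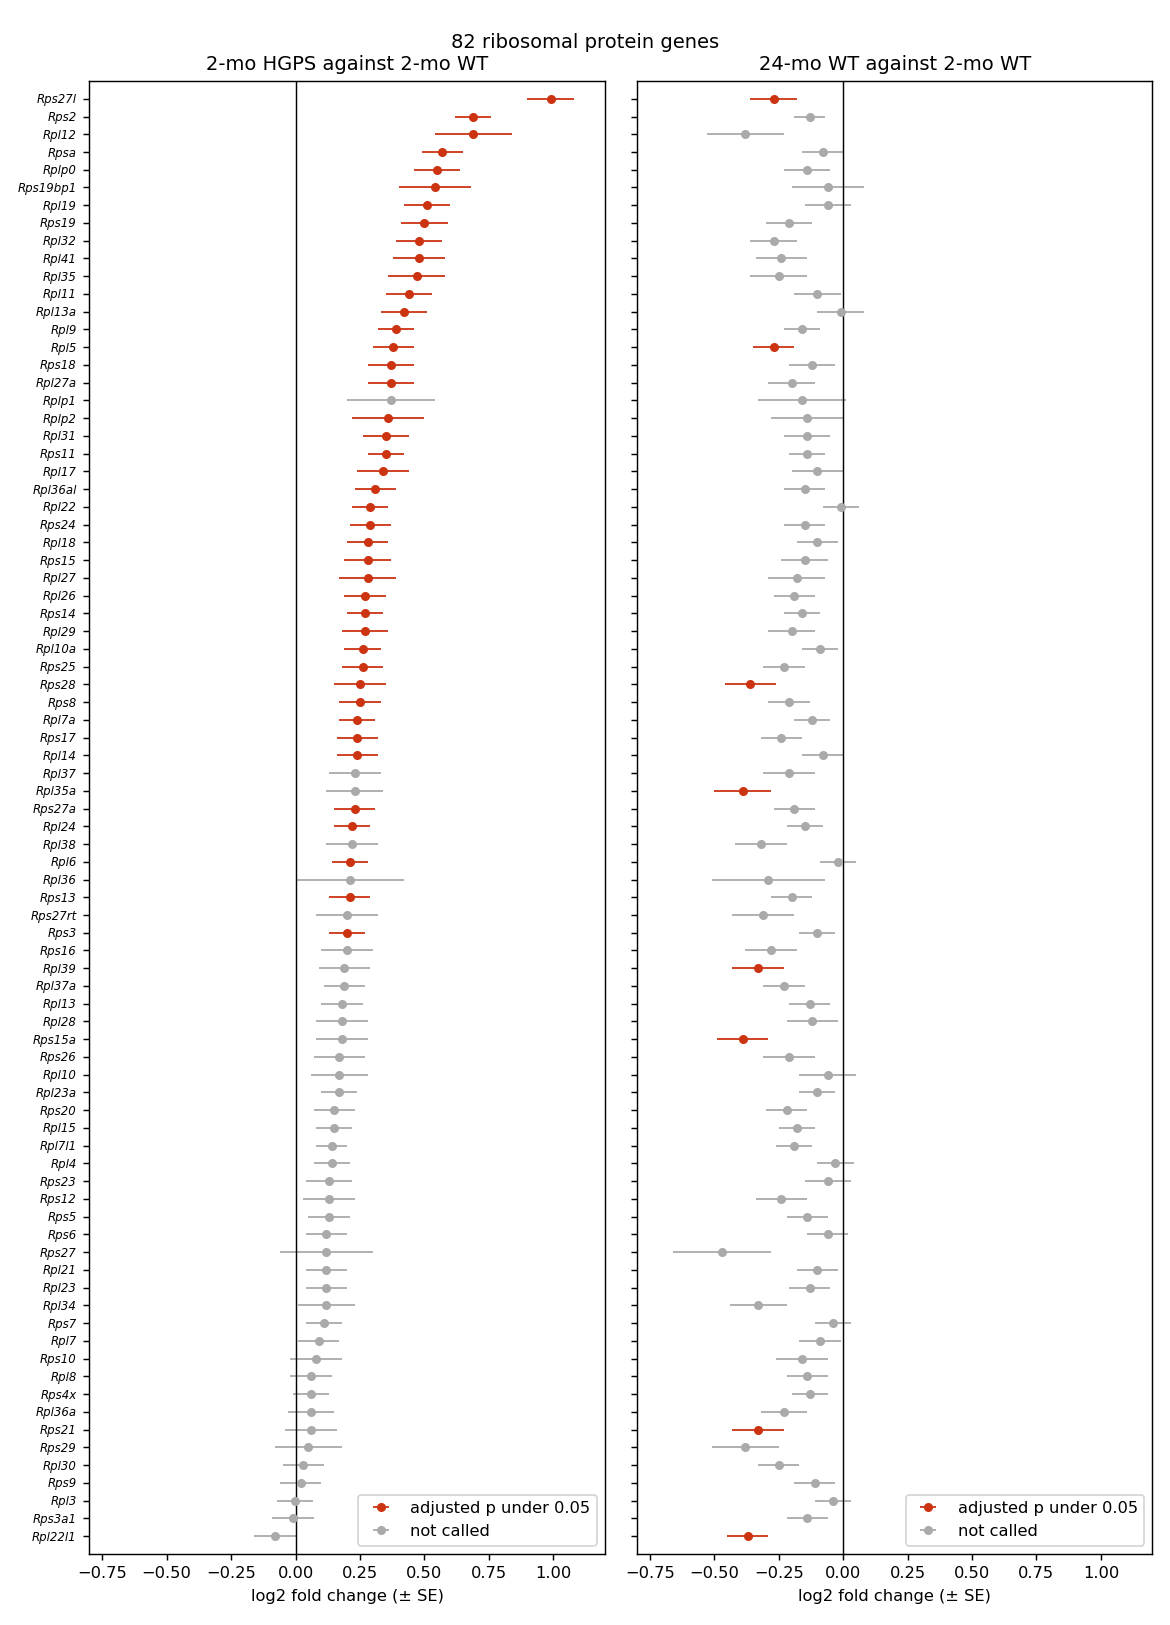
Log2 fold change (points) ± SE for 82 of the 83 genes, ordered by HGPS against 2-mo WT; red points had an adjusted p under 0.05. In HGPS against 2-mo WT (left) 42 of them are called, all to the right of 0, and in 24-mo against 2-mo WT (right) 8 are called, all to the left, while over all 83 genes with the length offset the calls were 18 higher and 1 lower, and 2 lower.

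With normal ageing few ribosomal protein genes were called, all of them lower. In 24-mo against 2-mo WT mice, 0 of 83 genes were higher and 8 were lower (9.64%), against 6.29% higher and 5.38% lower among all genes tested. All 83 fold changes were below 0, with a median of -0.16 against 0.01 for all genes. At an unadjusted p under 0.05 there were 38 members, and 3823 of the 15210 genes tested. DESeq2 called 15 members, all lower, and 13.7% of all genes. At 1.5-fold with an adjusted p under 0.001 there were 0 members (1.28% of all genes were higher and 0.717% lower at that threshold). Short transcripts moved in this direction too, since the 957 other coding genes under 1000 bases had a median of -0.08 and 8.05% called lower. Among the members the fold change had r = 0.449 with log10 length (83 genes), shorter genes being lower. With the length offset 2 genes were called, Rps15a at -0.29 (adjusted p 0.0344) and Rpl5 at -0.26 (adjusted p 0.0387), with a median of -0.08 over the 83 genes and 12% of all genes called. With the median coding length 6 were called, at a median of -0.11, and 12.1% of all genes. The comparison shares its 2-mo WT mice with that of HGPS against 2-mo WT.

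The 8 genes lower at 24 mo were Rps15a, Rpl35a, Rpl22l1, Rps28, Rps21, Rpl39, Rps27l and Rpl5. Rps15a, a small subunit protein (ENSMUSG00000008683, chr7:118104372-118116188, minus strand), had 189 to 211 CPM in 2-mo WT mice (median 197.5), 201 to 243.5 CPM in HGPS mice (median 227) and 104 to 179 CPM in 24-mo WT mice (median 156). All 24-mo mice were below all 2-mo WT mice, and the log2 fold change was -0.39 ± 0.10 (adjusted p 0.0119). Rpl22l1 at -0.37 ± 0.08 (adjusted p 0.00304) and Rps27l at -0.27 ± 0.09 (adjusted p 0.048) were the only others whose groups did not overlap. Among all genes tested, 3.08% were below without overlap and 3.2% above, where 0 members were.

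Rpl35a, whose loss also causes Diamond-Blackfan anaemia, had -0.39 ± 0.11 (adjusted p 0.0203), and its 24-mo mice ran from 101 to 180 CPM against 177 to 198 CPM in 2-mo WT. Rps28, at the mRNA exit, had -0.36 ± 0.10 (adjusted p 0.0189), Rps21 and Rpl39 had -0.33 ± 0.10 each (adjusted p 0.0353 and 0.0306) and Rpl5 had -0.27 ± 0.08 (adjusted p 0.0424; -0.11, adjusted p 0.422, with its copies). The count at 24 mo depended on single mice. Without 24-mo mouse 3 the count of lower genes was 20 and without mouse 2 it was 13, while without mouse 4 or 5 it was 4 and without mouse 1 it was 5. Leaving out 2-mo WT mouse 5 gave 4 genes and leaving out mouse 1, 3 or 6 gave 5.

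HGPS against 24-mo WT, which shares mice with both comparisons above, had the widest gap. Of the 83 genes 74 were higher, 0 were lower and all 83 fold changes were above 0, with a median of 0.43 against -0.01 for all genes tested. The share called among all genes was 23.8% higher and 23.6% lower. In 41 genes every HGPS mouse was above every 24-mo WT mouse and in 0 genes below (10.9 and 11.3% of all genes), and 12 genes were higher at 1.5-fold with an adjusted p under 0.001 and 0 lower (6.02 and 6.11% of all genes). The largest differences were in Rps27l (1.26 ± 0.09), Rpl12 (1.07 ± 0.15), Rps2 (0.82 ± 0.07), Rpl32 (0.75 ± 0.09) and Rpl35 (0.72 ± 0.11), and the smallest called in Rpl4 (0.16), Rps4x (0.19), Rpl8 (0.20), Rpl21 (0.21) and Rpl6 (0.23). The other coding genes under 1000 bases had a median of 0.30 with 47.8% called higher. With the length offset 27 of the 74 were still called (44.6% of all genes were), at a median of 0.11 over the 83 genes. Rps4x, Rpl8 and Rpl21 had values of -0.01, -0.03 and -0.00101 in that fit. With the median coding length 53 were called (45.7% of all genes were), at a median of 0.24.

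The paralog pairs allowed a comparison within a mouse, since a ratio of 2 genes does not depend on the library's scale. Each ratio was tested with an exact two-sided permutation test of 6 against 6 mice (smallest possible p 0.00216), adjusted over 18 tests. Rpl22 binds RNA and its protein is known to repress expression of its paralog Rpl22l1, which can take its place on the ribosome. Rpl22 had 119 to 140 CPM in 2-mo WT, 144 to 164 CPM in HGPS and 105 to 148 CPM in 24-mo WT mice. Rpl22l1 (ENSMUSG00000039221, chr3:28805436-28807424, plus strand) had 49.04 to 56.6 CPM in 2-mo WT, 44.04 to 51.7 CPM in HGPS and 31.3 to 44.3 CPM in 24-mo WT mice. The paralog was thus lowest in the aged mice, and Rpl22 highest in the HGPS mice.

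The log2 ratio of Rpl22l1 to Rpl22 was -1.30 ± 0.13 in 2-mo WT mice (-1.43 to -1.09), -1.68 ± 0.12 in HGPS mice (-1.90 to -1.56) and -1.67 ± 0.07 in 24-mo WT mice (-1.75 to -1.58; SD, n = 6 each). It was lower than in 2-mo WT by 0.38 in HGPS and by 0.37 at 24 mo, without overlap and with an adjusted p of 0.0195 in the exact permutation test in both cases. HGPS and 24-mo WT differed by -0.01 (adjusted p 0.859, exact permutation test). On the linear scale there were 0.406 counts on Rpl22l1 for each count on Rpl22 in 2-mo WT mice, 0.312 in HGPS and 0.314 in 24-mo WT mice. The single genes contributed differently. In HGPS against 2-mo WT, Rpl22 was higher by 0.29 ± 0.07 (adjusted p 0.00322, no overlap) while Rpl22l1 had -0.08 ± 0.08 (adjusted p 0.398). At 24 mo against 2-mo WT it was Rpl22l1 that was lower, by 0.37 on the log2 scale, and Rpl22 had -0.01 ± 0.07 (adjusted p 0.954). With the length offset Rpl22l1 was lower in HGPS against 2-mo WT at -0.30 (adjusted p 0.00671) and Rpl22 had 0.06 (adjusted p 0.571). The principal transcripts have 552 and 474 bases, but Rpl22 also has longer coding transcripts, with a median of 2048 bases.

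The ratio of Rps27l to Rps27 was higher in HGPS mice by 0.85 against 2-mo WT (adjusted p 0.026, exact permutation test) and by 0.65 against 24-mo WT (adjusted p 0.0292). Rps27 itself varied widely between mice, with 28.3 to 55.5 CPM in 2-mo WT and 33.1 to 59.2 CPM in HGPS mice, and its fold change was 0.12 ± 0.18 (adjusted p 0.647). Its retrocopy Rps27rt, whose reads can be hard to tell from its own, had more counts than Rps27, at 139 to 190 CPM in 2-mo WT and 174 to 221 CPM in HGPS mice. With Rps27rt added to Rps27, a step chosen after the data were seen, the ratio of Rps27l differed by 0.80 for HGPS against 2-mo WT and by 0.71 for HGPS against 24-mo WT, each with an adjusted p of 0.00974 in the exact permutation test, and by 0.09 (adjusted p 0.387) for 24-mo against 2-mo WT. Rps27rt alone had 0.20 ± 0.12 (adjusted p 0.202) in HGPS against 2-mo WT, and -0.05 with the length offset.

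Rpl36al, the autosomal paralog of X-linked Rpl36a, rose by 0.31 ± 0.08 in HGPS against 2-mo WT (adjusted p 0.00459), and its ratio to Rpl36a by 0.24 (adjusted p 0.039, exact permutation test, a call lost without most single mice). The log2 fold change of Rpl36al was 0.08 (adjusted p 0.388) with the length offset. Rpl7l1, a relative of Rpl7, had 0.14 ± 0.06 (adjusted p 0.0974), and its ratio to Rpl7 differed by 0.05 (adjusted p 0.419) in HGPS against 2-mo WT and by 0.15 (adjusted p 0.039, exact permutation test) in HGPS against 24-mo WT. In all, 2 of the 5 paralogs and retrocopies were higher in HGPS against 2-mo WT and 2 were lower in 24-mo against 2-mo WT. Of all genes, 22% were higher in the first comparison and 5.38% lower in the second.

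**Figure D4:**
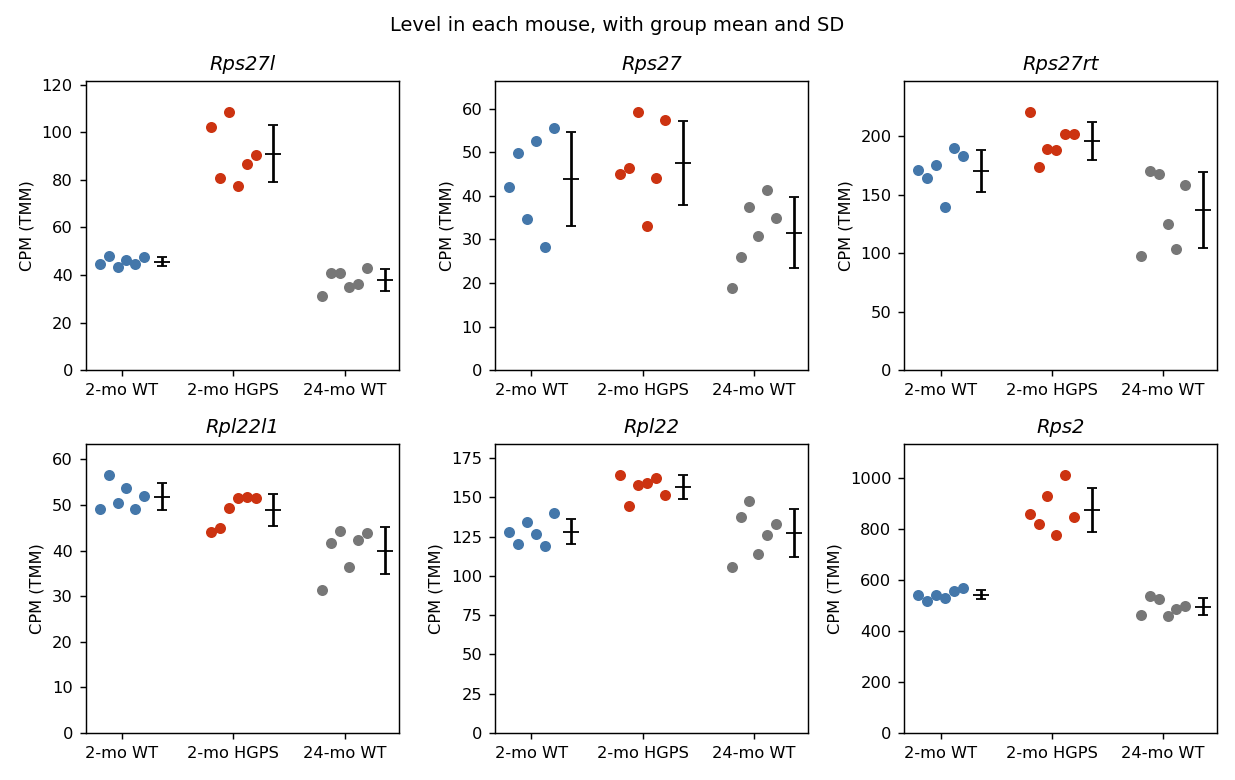
Level in each mouse in TMM-scaled CPM (axes start at 0), with group mean and SD, for Rps27l, Rps27, Rps27rt, Rpl22l1, Rpl22 and Rps2. Rps27l and Rps2 lie higher in all 6 HGPS mice than in any WT mouse, Rps27 overlaps between groups, and Rpl22l1 is lowest in the 24-mo WT mice.

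Ribosomal protein mRNAs have been copied back into the genome many times, and reads of a gene and of a near-identical copy cannot be told apart with certainty. A search of the annotated transcripts found 583 copies at 95% identity or more, of which 445 had counts, and 75 of 83 members had at least 1. For most members they mattered little, but 14 had 10% or more of their family's counts on copies and 5 had over 50%. Those 5 were Rpl12 (95.2%, on Gm10275 above all), Rpl5 (88.4%, Gm15500), Rpl10 (84.8%, Rpl10-ps3), Rpl27a (52.0%, Gm7536) and Rps23 (50.4%, Rps23-ps1), and each of these copies is identical to the gene over the aligned bases. The fold changes of these 5 genes are therefore uncertain as values of the gene alone. Matches among the 83 genes themselves were not counted as copies. Rps27rt, with 58949 counts over 18 mice against 14278 on Rps27, is thus absent from these numbers, and the values of Rps27 alone are uncertain too.

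**Figure D5:**
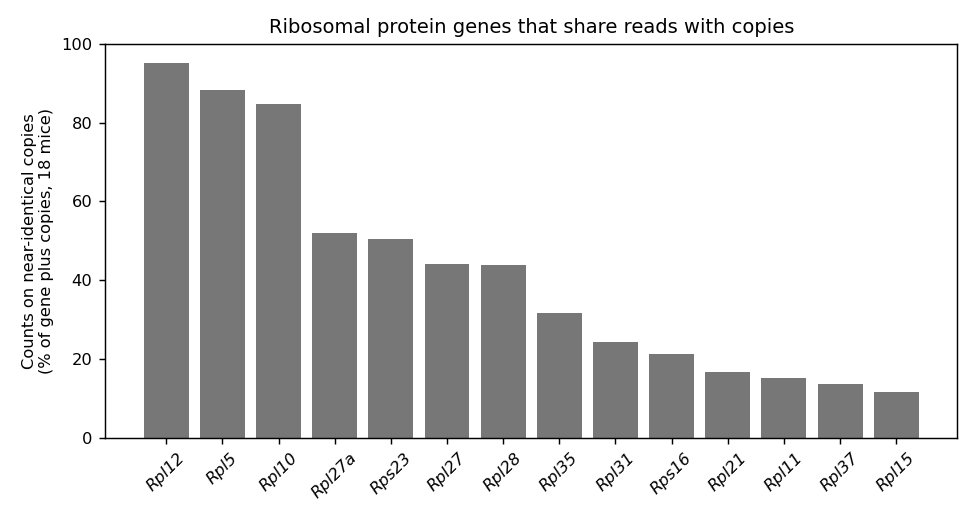
Percentage of the counts of a gene and its near-identical copies, summed over 18 mice, that stood on the copies, for the 14 members at 10% or more. Rpl12, Rpl5 and Rpl10 stand apart at 84.8 to 95.2%. Genes among the 83, such as Rps27rt, were not counted as copies, so Rps27 is not shown.

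Adding the copies to their genes changed few calls. It gave 44 genes higher in HGPS against 2-mo WT, with all 43 among them, 9 lower in 24-mo against 2-mo WT, with 7 of the 8 among them, and 75 higher in HGPS against 24-mo WT. The families' share of counts became 2.31 to 2.47% in 2-mo WT, 2.57 to 3.11% in HGPS and 1.81 to 2.53% in 24-mo WT mice. Rpl5 with its copies had 0.21 ± 0.08 (adjusted p 0.0367) in HGPS against 2-mo WT, less than the gene alone, and -0.11 ± 0.08 (adjusted p 0.422) in 24-mo against 2-mo WT, where the gene alone was called. Rpl10 with its copies, a far more abundant family than the gene's own counts show, had -0.02 ± 0.08 (adjusted p 0.872) and 0.03 ± 0.08 (adjusted p 0.881).

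Ribosomal proteins whose symbols lack the prefix were read beside them. Rack1, a scaffold on the small subunit, had 499 to 552 CPM in 2-mo WT mice, 539 to 669 CPM in HGPS mice and a log2 fold change of 0.17 ± 0.07 (adjusted p 0.0412), with the groups overlapping at their edges. Fau, the precursor of a small subunit protein, had 125 to 173 CPM in 2-mo WT mice, 146 to 196 CPM in HGPS mice and 0.22 ± 0.09 (adjusted p 0.0738). In 24-mo against 2-mo WT the values were -0.14 ± 0.07 (adjusted p 0.177) for Rack1 and -0.02 ± 0.10 (adjusted p 0.909) for Fau.

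The mitochondrial ribosomal proteins, which serve a separate ribosome and are encoded by another set of nuclear genes, were higher in HGPS too. Of 78 tested, 45 were higher (57.7%, against 22% of all genes) and 0 lower (21.2% of all genes) against 2-mo WT, with a median of 0.24, led by Mrps6 (0.80) and Mrpl12 (0.71). Of these, 1 was higher and 2 were lower in 24-mo against 2-mo WT, with a median of -0.04, where the cytosolic genes had -0.16 and 6.29% of all genes were higher and 5.38% lower. The difference between the cytosolic and mitochondrial families was not tested. In HGPS against 2-mo WT the other coding genes under 1000 bases had 39.9% called higher and a median of 0.22. Those short genes can include mitochondrial ribosomal protein genes. The part of transcript length in the mitochondrial family's difference was not tested.

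Genes that build and regulate ribosomes were also read in HGPS against 2-mo WT, where 22% of all genes were higher and 21.2% lower. Of 66 ribosome biogenesis genes 23 were higher (34.8%) and 5 lower (7.58%), with a median of 0.14. The nucleolar GTPase gene Gnl3 (0.56), the assembly factor Mrto4 (0.53) and the polymerase subunit Polr1d (0.45) were higher, while Ubtf, an activator of ribosomal RNA transcription, was lower at -0.34 ± 0.05. Of 17 other translation genes with TOP mRNAs 7 were higher (41.2%) and 2 lower (11.8%), among them Gas5 (0.33), Eef1b2 (0.29), Tpt1 (0.28) and Eif3l (0.25). Of 17 genes of mTORC1 and Myc control 6 were higher (35.3%) and 1 lower (5.88%). Eif4ebp1, the translation repressor that mTORC1 inactivates, had 0.89 ± 0.10, Myc had 1.05 ± 0.25 at a low level of 1.30 to 3.97 CPM in 2-mo WT and 4.22 to 6.69 CPM in HGPS mice, Max had 0.36, and Tsc1, an inhibitor of mTORC1, had -0.22.

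In 24-mo against 2-mo WT, 6.29% of all genes were higher and 5.38% lower. Of the biogenesis genes 1 was higher (Noc2l, 0.27) and 1 lower (Emg1, -0.25), and of the 17 other TOP mRNAs 2 were lower (11.8%; Hnrnpa1, -0.32, and Tpt1, -0.23). Of the mTORC1 and Myc genes 0 were called by edgeR and 0 had an unadjusted p under 0.05, where 3823 of all 15210 genes tested had.

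Markers of several cell types moved with the genotype as well. Among all genes 22% were higher and 21.2% lower in HGPS against 2-mo WT. In 24-mo against 2-mo WT the shares were 6.29 and 5.38%. In HGPS against 2-mo WT all 10 macrophage markers were higher, with a summed level of 972 to 1570 CPM against 521 to 791, and so were all 12 cell cycle genes, at 117 to 157 CPM against 71.7 to 85.1. Smooth muscle markers summed to 21100 to 29300 CPM against 32100 to 41000, with 7 of 10 lower, and fibroblast markers to 6280 to 10600 against 9260 to 12000, with 6 of 10 lower. Markers of fat around the vessel were higher, 10 of 10 for brown fat (512 to 1820 CPM against 126 to 666) and 7 of 10 for white fat, where 1 was lower (1510 to 4220 CPM against 1110 to 1960). In 24-mo against 2-mo WT 6 of 10 fibroblast markers were lower, at 6040 to 8740 CPM, and 1 smooth muscle marker was higher. Skeletal muscle markers summed to 6.67 to 9.91 CPM at 24 mo and 4.26 to 5.59 CPM in 2-mo WT mice without overlap (1 of 5 tested was called higher), 2 of 10 white fat markers were higher, and of 6 nerve and glia markers 3 were higher and 1 lower. In HGPS against 2-mo WT the nerve and glia markers summed to 284 to 378 CPM against 440.0 to 538. Of the 6 tested, however, 2 were called higher and 2 lower, with a median log2 fold change of -0.02. Of 5 skeletal muscle markers tested, 2 were higher and 1 lower in HGPS against 2-mo WT. Mitochondrially encoded mRNA took 2.51 to 4.17% of counts in HGPS mice against 1.77 to 2.50% in 2-mo WT mice. Other lists had few or no calls. Of 10 endothelium markers 1 was higher in HGPS against 2-mo WT and 0 were called in 24-mo against 2-mo WT. Of 5 T and B cell, 4 mesothelium and 8 red cell and platelet markers tested, 0 were called in these 2 comparisons. Their median log2 fold changes, in that order, were -0.27, 1.08 and 0.24 in HGPS against 2-mo WT. In 24-mo against 2-mo WT they were 0.59, 0.22 and 0.87, so the lack of calls does not mean small differences. No marker of these lists was at 0 in all mice, and the smooth muscle markers show the tissue as labelled.

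With scores for brown fat and skeletal muscle as covariates, 18 members were called higher in HGPS against 2-mo WT, 17 of them among the 43, at a median of 0.32. The share of all genes called in either direction was 16.3% in that fit, against 43.2% without the covariates. Rps27l had 1.01 ± 0.16, Rps2 0.74 ± 0.12, Rpsa 0.57 ± 0.14 and Rplp0 0.54 ± 0.15 in that fit, all called. Rpl12 had 0.51 ± 0.28 (adjusted p 0.228) and Rpl22l1 turned to 0.16 ± 0.12 (adjusted p 0.384). In 24-mo against 2-mo WT 0 members were called in it, at a median of -0.19. The share of all genes called there was 2.7%, against 11.7% without the covariates. The skeletal muscle sums did not overlap between these 2 groups, so that covariate and age cannot be told apart in this fit. In HGPS against 24-mo WT 69 members were called, with 24.1% of all genes against 47.3% without the covariates. The part of macrophages, dividing cells, smooth muscle and nerve in the members' levels was not tested.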

How the data were processed

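RNA of the descending aorta of 18 male mice (6 per group) was sequenced. The study's methods name a stranded total RNA kit with ribosomal RNA removal, paired-end reads, quantification with salmon against GENCODE and summing to genes with tximport. The submitters' processing notes also name Bowtie 0.12.2 and the builds mm10 and GRCm38, with no role given. The authors deposited estimated counts per gene, as whole numbers and not normalised, in 1 table. Library totals were 12413229 to 30844775, and their number limits the precision of low genes such as Rps19bp1.

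A gene was fitted if 6 or more mice had 10 or more counts of it, which 15210 genes met, with edgeR 4.0.16 (R 4.3.3, TMM, quasi-likelihood, 3 groups in 1 fit, 15 residual degrees of freedom, prior count 2). The Benjamini-Hochberg adjustment covered every gene fitted. CPM values are TMM-scaled. Calls were an adjusted p under 0.05, and 1.5-fold with an adjusted p under 0.001, the study's thresholds, was counted beside it. Scripts were tested on simulated data. DESeq2 1.42.0 was an alternative. Ratios of paralogs were tested by exact two-sided permutation (scipy 1.17.1). Copies were found with blastn 2.17.0 (identity of at least 95%, coverage of at least 80%, at least 200 aligned bases).

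Transcript length was that of the shortest principal coding transcript in GENCODE M21, a definition chosen after values had been seen. The median coding length was added as an alternative. Names matched for 54107 of 54281 genes. Start windows came from RefSeq (GRCm38.p6). The members and lists were chosen with earlier results of these data known. Named genes were the 5 highest and 5 lowest called fold changes of each comparison, the 5 highest and lowest levels per length, the paralogs with their partners, the role members, Fau, Rack1 and at most 4 of each other list by lowest adjusted p. Others, such as Rps3a1, Rpl3, Rps9, Rps23, Rpl19, Rpl35, Rpl39, Rps19, Rpl10, Rpl27a, Rps15 and Rpl7a, were named after their values were seen. Mice of different groups with the same number are different animals, so no pairing entered the fit. Some genes that this rule names are not reported here.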

Additional observations from a re-analysis of the deposited data

Results flagged for a closer look

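Over 99 sets of 6 mice (the named genes and sums, by group), 2 had a mouse far from the other 5 by Dixon's test at the 95% level, which flags about 1 set in 20 by chance. Rpl11 was at 133 CPM in 2-mo WT mouse 2, where the next mouse was at 161 CPM. Rpl12 was at 14.1 CPM in HGPS mouse 4, where the next was at 23.2 CPM. Leaving out 1 mouse at a time, the log2 fold change of Rpl12 in HGPS against 2-mo WT ran from 0.64 to 0.81.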

How the results depend on the processing

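The 43, 8 and 74 genes called in HGPS against 2-mo WT, 24-mo against 2-mo WT and HGPS against 24-mo WT became 19, 2 and 27 with the transcript length offset and with the offset estimated from other genes, 25, 6 and 53 with the median coding length, 18, 0 and 69 with the covariates, and 2, 0 and 12 at 1.5-fold and an adjusted p under 0.001. For 24-mo against 2-mo WT, DESeq2 gave 15 (13.7% of all genes were called) and a fit of these groups alone 4 (9.83% of all genes). Leaving out 1 mouse gave 34 to 49, 4 to 20 and 69 to 78. The replicate block gave 40, 7 and 72. Same-numbered mice did not pair (2 of 18 correlations over 0.1, range -0.162 to 0.172, and 4 of 18 mice matched their own number best). Under the block 6 paralog ratios kept their values of -0.378 and -0.366 (Rpl22l1), 0.853 and 0.649 (Rps27l), 0.243 (Rpl36al) and 0.151 (Rpl7l1) and lost the call, since fewer permutations remain. Without 1 mouse the ratios ran, for Rpl22l1, from -0.403 to -0.335, -0.391 to -0.323 and -0.037 to 0.032 (HGPS against 24-mo WT), for Rps27l from 0.788 to 0.965 and 0.551 to 0.735, for Rpl36al from 0.203 to 0.290, for Rpl7l1 from 0.116 to 0.171 and -0.128 to -0.061, and for Rps27rt from -0.045 to 0.224 and -0.226 to 0.053. Adjusted p passed 0.05 without most single mice for Rpl36al (up to 0.0844) and for Rpl7l1 in HGPS against 24-mo WT (up to 0.0779), and for Rps27l in HGPS against 24-mo WT without HGPS mouse 1, 2, 3 or 5 (0.0545 to 0.0682). Rps19bp1 (24-mo against 2-mo WT) ran from -0.13 to 0.02. Signs also turned with the length offset, with the value from other genes second where both turned. In HGPS against 2-mo WT these were Rps6 (-0.04, -0.04), Rps13 (-0.01, -0.01) and Rps27rt (-0.05, -0.05). In 24-mo against 2-mo WT they were Rps6 (0.01, 0.00217), Rplp2 (0.02, 0.01) and Rps19bp1 (0.02, 0.01). In HGPS against 24-mo WT they were Rps6 (-0.05, -0.04), Rps4x (-0.01, -0.00155), Rpl8 (-0.03, -0.03), Rpl22l1 (-0.05, -0.04) and Rpl21 (-0.00101). The covariates turned Rpl22l1 (HGPS against 2-mo WT, 0.16) and Rps6 (24-mo against 2-mo WT, 0.03). The cause of these changes was not tested. Of the named genes' values under all alternatives, 1882 kept direction and side of the threshold, 249 lost the call, 13 gained it and 26 turned. P-values weigh a difference between groups against the spread between mice.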
